A study of Homo sapiens with 26 samples.

Results

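Sites bound by the progesterone receptor (PR) and the estrogen receptor (ER) were described at 6 genes used as classical progestin targets, namely FKBP5, SGK1, PER1, ZBTB16, STAT5A and TNFSF11. A site was counted when it overlapped the gene's span on the hg19 build or the 50 kb on either side. The rule used positions and no binding values, but the genes, spans and lists were chosen with earlier results of these data known. It took 78 sites from the 87206 sites of 10 deposited lists. Of the 78 sites, 50 lay wholly inside a gene span. The series mapped binding with ChIP-seq, in which DNA bound by a protein is pulled down with an antibody and sequenced, in T47D (an established human breast cancer line with both receptors) and in PR-deficient T47D. The labels used here do not say how PR was removed or whether the deficient line is 1 clone. After 48 h without steroids, cells received vehicle, 10 nM estradiol (E2), 10 nM of the synthetic progestin R5020, or the 2 hormones together (E2+R5020), each for 45 min. In T47D, PR and ER were each precipitated after E2, R5020 and E2+R5020, and ER followed by PR (reChIP) after E2+R5020, which gave 7 lists. In PR-deficient cells, ER was precipitated after the same 3 treatments, which gave 3 lists. By their names, the deposited lists had vehicle subtracted, and the reChIP list also an IgG control, so the lists of 1 line and antibody share a vehicle library. Each list came from 1 library, so no value below has a replicate error and no test between treatments was possible. Read depth is unknown.

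PR and ER are nuclear receptors. After binding their steroid they attach to DNA, PR to palindromes with arms related to AGAACA and ER to palindromes with arms related to GGTCA, often far from the promoter of the gene they regulate. Many progestin-induced genes are also targets of the glucocorticoid receptor, which recognises nearly the same letters as PR. FKBP5 encodes a co-chaperone of steroid receptor complexes that dampens their signalling. SGK1 encodes a kinase of cell survival and ion transport, and PER1 a repressor of the circadian clock. ZBTB16 encodes the zinc finger repressor PLZF, STAT5A a transcription factor of the prolactin pathway, and TNFSF11 the cytokine RANKL, a paracrine signal of the progestin-stimulated mammary gland.

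The 6 genes fell into 3 kinds. FKBP5 (chr6:35541362-35696360) and ZBTB16 (chr11:113930431-114121397) held 33 and 26 of the 78 sites, with clusters of PR and ER sites inside the gene. STAT5A (chr17:40439565-40463960) held 8 sites, among them a PR site of E2+R5020 with a score reached by 99 of the 11908 sites of its list. PER1 (chr17:8043788-8055753), SGK1 (chr6:134490384-134639196) and TNFSF11 (chr13:43136872-43182149) held 7, 3 and 1 sites, and none of these came from the PR list of R5020. Spans are of hg19, and exons and introns were not annotated here, so positions are given as distances from the 5′ end of the span in the direction of transcription.

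The PR list of E2+R5020 placed 18 sites at the genes, that of R5020 9 sites and that of E2 5 sites. In T47D, the ER list of E2+R5020 placed 16 sites, that of R5020 8 and that of E2 3. The reChIP list placed 4, all of them at FKBP5. In PR-deficient cells, ER had 6 sites after E2, 5 after R5020 and 4 after E2+R5020. With the lowest score kept in each list raised by 1 step, T47D ER kept 1 site after E2 and 4 after R5020, and PR-deficient ER kept 2 after R5020. Per Mb of the 1.18 Mb of windows, the PR list of E2+R5020 held 15.3 sites against 3.85 over the whole genome, and that of R5020 held 7.65 against 2.05. The corresponding values were 13.6 against 6.21 for T47D ER with E2+R5020 and 6.80 against 1.73 for T47D ER with R5020. They were 4.25 against 2.57 for PR with E2, 2.55 against 1.30 for T47D ER with E2 and 3.40 against 3.19 for the reChIP. In PR-deficient cells they were 5.10 against 2.50 with E2, 4.25 against 2.95 with R5020 and 3.40 against 1.83 with E2+R5020. The density over the 6 windows together was thus above that of the whole list in all 10 lists, by least for the reChIP. FKBP5 and ZBTB16 held 33 and 26 of the 78 sites, so the joint density does not describe each gene. The PR list of E2, the T47D ER list of R5020 and the reChIP list had no site at the other genes. The PR list of R5020 had 1 there, and the remaining lists also had sites there. The whole genome was taken to the highest site end of each chromosome, including stretches without any site. These densities have no replicate check and were not tested.

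Most lists reached only some of the genes. PR with E2+R5020 had a site at 4 of the 6 genes (FKBP5, SGK1, ZBTB16 and STAT5A), where 28.3% of 200 kb tiles of the genome held a site of that list. PR with R5020 reached 3 genes (FKBP5, ZBTB16 and STAT5A; 18.7% of tiles) and PR with E2 reached 2 (FKBP5 and ZBTB16; 24.3% of tiles). T47D ER reached all 6 genes with E2+R5020, a list with a site in 52.9% of tiles. It reached 2 genes with R5020 (15.3% of tiles) and 3 with E2 (16.4% of tiles). The reChIP reached 1 gene (24.7% of tiles). ER in PR-deficient cells reached 4 genes with E2 (25.1% of tiles), 3 with R5020 (21.5%) and 2 with E2+R5020 (20.6%). At least 1 site of any list lay in 73.0% of tiles, so a site somewhere near a gene is common. The windows of the 6 genes run from 112 to 291 kb, and tiles include stretches of the chromosomes without any site.

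**Figure D1:**
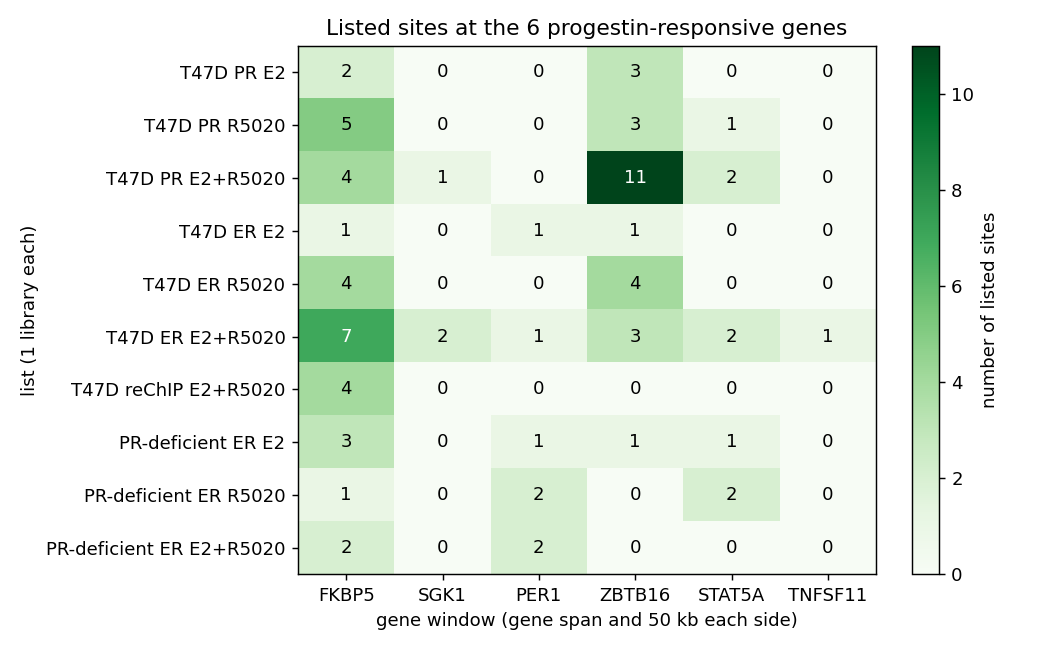
Number of listed sites of each of the 10 lists (rows, 1 library each) in the window of each gene (columns); colour and printed figures give the same count. The PR list of E2+R5020 has 11 sites at ZBTB16, and T47D ER with E2+R5020 has 7 at FKBP5, while the columns of SGK1 and TNFSF11 are nearly empty.

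A score was deposited with each site. Scores are whole multiples of a step that differs between lists, so a site is placed here by the share of sites of its own list with a lower score (0% lower is the lowest score the list kept). Sites that overlapped by 1 bp or more were joined into regions, 51 in all. Of these, 36 held sites of 1 list, 15 held 2 or more lists and 6 held 3 or more, with at most 4 lists in a region. The 15 shared regions took in 42 of the 78 sites (53.8%), where 40.5% of all sites of the 10 lists overlapped a site of another list. Of the 15, 7 were at FKBP5, 5 at ZBTB16, 2 at STAT5A and 1 at PER1.

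RefSeq promoters of the GRCh38.p14 build were found for 5 of the 6 genes, in 11 entries (there is none for ZBTB16). The 250 bases before the outermost start are shown for 3 genes: FKBP5, the only one with a listed site across the 5′ end of its span, STAT5A, the only one with an AGAACA arm, and PER1, whose nearest sites lie just upstream. They are written 5′ to 3′ on the gene's strand, ending at the base before the start. Builds were not converted, so whether these starts are the 5′ ends of the hg19 spans was not checked. FKBP5, SGK1, STAT5A and TNFSF11 also have RefSeq starts inside the outermost one, with a window at chr6:35688916-35689165 for FKBP5. Distances from the 5′ end of a span are therefore not distances from every promoter of the gene. Capitals mark a PR arm (AGAACA or its reverse complement TGTTCT) or an ER arm (GGTCA or its reverse complement TGACC).
FKBP5 (chr6:35728584-35728833, minus strand): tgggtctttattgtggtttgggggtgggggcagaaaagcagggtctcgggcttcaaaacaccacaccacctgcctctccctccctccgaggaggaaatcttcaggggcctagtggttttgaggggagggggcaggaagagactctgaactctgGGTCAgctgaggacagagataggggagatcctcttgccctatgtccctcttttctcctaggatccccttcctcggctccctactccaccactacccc
STAT5A (chr17:42287189-42287438, plus strand): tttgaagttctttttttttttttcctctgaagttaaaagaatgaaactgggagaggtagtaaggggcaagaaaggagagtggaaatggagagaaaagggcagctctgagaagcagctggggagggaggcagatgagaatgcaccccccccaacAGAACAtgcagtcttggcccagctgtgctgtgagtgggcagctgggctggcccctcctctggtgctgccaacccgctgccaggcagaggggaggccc
PER1 (chr17:8152405-8152654, minus strand): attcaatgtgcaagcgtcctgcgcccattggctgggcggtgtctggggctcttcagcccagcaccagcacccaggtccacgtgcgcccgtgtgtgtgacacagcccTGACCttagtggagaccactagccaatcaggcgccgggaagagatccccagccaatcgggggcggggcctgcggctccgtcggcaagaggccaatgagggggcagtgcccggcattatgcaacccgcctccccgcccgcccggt

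Searched on both strands, the STAT5A window held AGAACA at bases 97 to 92 before the start. The FKBP5 window held GGTCA at bases 97 to 93 and the PER1 window TGACC at bases 144 to 140 before the start. A PR arm was found in 2 of the 11 entries, which overlap each other at STAT5A, and in 12.4% of the 35116 RefSeq windows of this length. An ER arm was found in 3 entries and in 32.6% of windows. No entry held a whole PR palindrome (AGAACA, any 3 bases, then TGTTCT; 0.00285% of windows) or a whole ER palindrome (GGTCA, any 3 bases, then TGACC; 0.0399% of windows). None held the AP-1 motif TGANTCA (6.57% of windows). These letters say nothing of sites outside the windows. The listed PR site nearest to the 5′ end of a span began 1.23 kb inside it, at FKBP5. Builds were not converted, so whether any listed site lies in a window was not checked.

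At FKBP5, sites gathered around the 5′ end of the span. Within 10 kb of that end, on either side, lay 23 of the 33 sites, a distance chosen after the sites were seen. All 5 PR sites of R5020, 3 of the 4 PR sites of E2+R5020 and all 4 reChIP sites lay there, against 3 of 4 T47D ER sites with R5020 and 4 of 7 with both hormones. The other 4 were 1 PR site of E2 and 1 ER site of each treatment in PR-deficient cells, and the T47D ER list of E2 had none. Upstream of the end lay 1 each of the PR sites of E2 and of E2+R5020, the ER sites of R5020, the reChIP sites and, in PR-deficient cells, the R5020 sites, while all 5 PR sites of R5020 and the 4 ER sites of E2+R5020 lay inside the gene. The only FKBP5 site of the T47D ER list of E2 began 45.9 kb upstream, at the lowest score that list kept. In tiles as long as the FKBP5 window, 2.21% held at least 5 PR sites of R5020 and 7.14% at least 4 PR sites of E2+R5020. At least 7 T47D ER sites of E2+R5020 were held by 2.76%. Such shares were computed only for picked pairs of gene and list, among them those with the most sites. The bound was the count seen, so these shares describe the picked pairs and are no test of clustering.

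Of the PR sites at the 6 genes, the one placed highest in its own list lay at FKBP5. Its region ran from 2.37 to 3.17 kb inside the gene, chr6:35693194-35693995 on hg19. With E2+R5020, PR had 1 site of 802 bp there, with a score reached by 36 of the 11908 sites of its list (99.7% lower). With R5020, PR had a pair of sites inside it, of 153 and 191 bp, with 0% and 61.8% of their list lower. ER had a 597 bp site with R5020 and a 301 bp site with E2+R5020, both lying wholly within the PR site, but with low scores in their lists (0% and 9.54% lower). PR and ER were thus both listed with R5020 alone. No E2 list, reChIP list or list of PR-deficient cells had a site in this region.

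The next region toward the 5′ end, 332 bp away, lay 1.23 to 2.03 kb inside the gene (chr6:35694328-35695127). PR with E2+R5020 covered all of it with an 800 bp site (98.2% of its list lower). PR with R5020 had 2 sites there, of 177 and 261 bp and the same score (90.3% lower), the highest that this list reached at any of the 6 genes. ER was listed with E2+R5020 (189 bp, 30.4% lower) and so was the reChIP (379 bp, 15.9% lower). Of the 15 shared regions, this was the only one listed for PR, ER and the reChIP of both hormones. ER with R5020 had no site in it.

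Farther inside FKBP5, the region at 5.36 to 6.42 kb (chr6:35689938-35691003) was led by ER and the reChIP. ER had 2 sites with E2+R5020, of 546 bp (86.4% lower) and 252 bp (89.9% lower), and 1 with R5020 of 138 bp (93.9% lower). These are the highest-placed ER sites of their lists at the 6 genes. The reChIP site was 844 bp long (91.2% lower) and took in the whole 546 bp ER site. PR had a 134 bp site with R5020 (13.1% lower) and none with E2+R5020, the treatment of the reChIP.

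The 5′ end of the FKBP5 span itself carried a reChIP site and ER sites of PR-deficient cells, but no ER or PR site of T47D. The reChIP site, at 0.199 to 0.703 kb (chr6:35695657-35696161), had the highest reChIP score at the genes (94.4% of the list lower). In PR-deficient cells ER was listed with E2 over 846 bp from 36 bp inside the end (24.0% lower), and with E2+R5020 over 2295 bp across it (36.5% lower). Both took in the whole reChIP site. Another reChIP site, 2.87 to 3.62 kb upstream (15.9% lower), touched an ER site of PR-deficient cells with R5020 by 15 bp.

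Each of the 4 reChIP sites therefore met another list, 2 of them PR and T47D ER sites and the other 2 ER sites of PR-deficient cells. Over the whole reChIP list, 43.2% of sites met a site of any other list. A PR site was met by 13.8%, a T47D ER site by 23.6% and an ER site of PR-deficient cells by 23.7%. With 4 sites, these shares cannot be compared.

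The other FKBP5 sites were scattered. RefSeq places ARMC12 and CLPSL2 within 50 kb of FKBP5, so sites in the flanks may belong to other genes. PR with E2+R5020 had a site at 12.7 to 13.1 kb (373 bp, 93.8% lower), found in no other list, and a weaker one 6.81 to 7.09 kb upstream (63.7% lower). PR with E2 had 1 site at 79.4 to 79.6 kb (58.5% lower) and 1 at 9.44 to 9.68 kb upstream (0% lower), neither shared. The remaining shared regions belonged to ER: at 35.8 to 36.8 kb upstream, T47D ER with E2+R5020 met PR-deficient ER with E2 by 74 bp, and at 47.5 to 49.3 kb upstream the E2 and E2+R5020 lists of PR-deficient cells overlapped by 1003 bp. Of the regions of 1 list, the ER site with R5020 at 8.34 to 8.53 kb upstream had 46.3% of its list lower, and the better-placed ER site with E2+R5020, at 51.3 to 51.5 kb, had 50.6%.

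**Figure D2:**
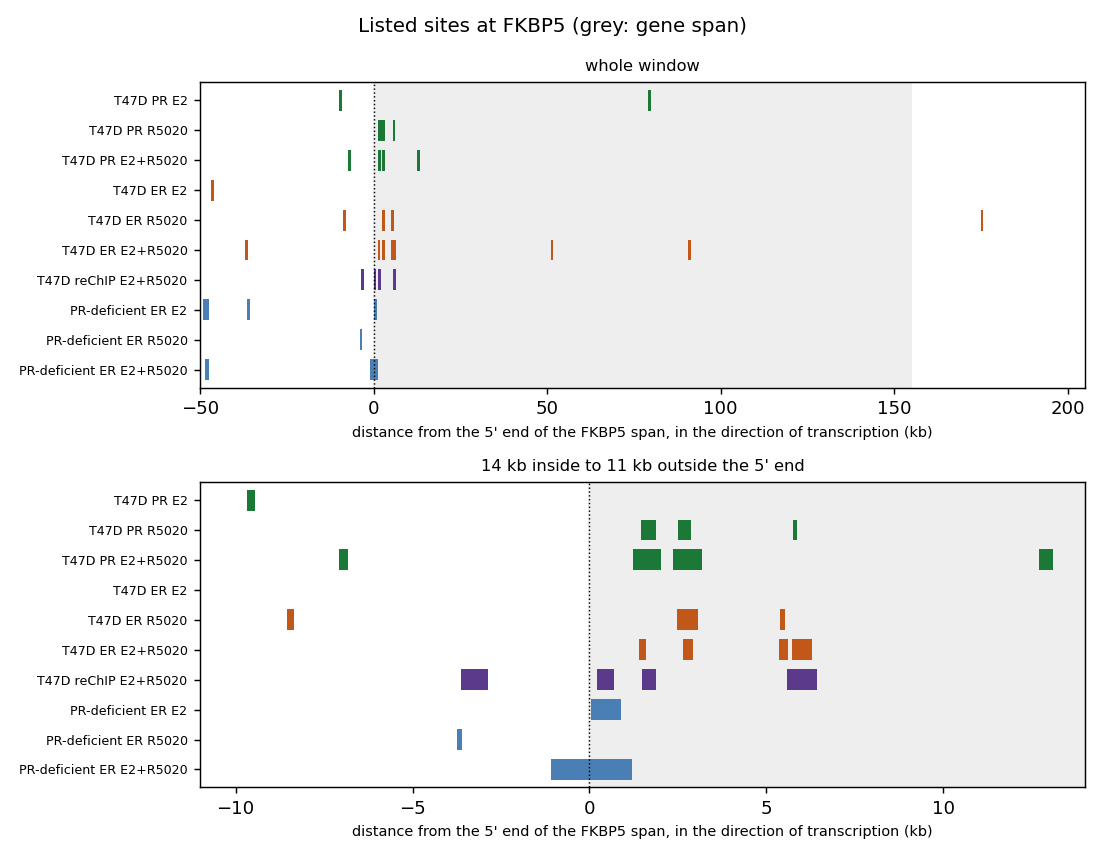
Sites at FKBP5 by list (rows), drawn at their distance in kb from the 5′ end of the gene span (dotted line), with the span in grey; sites too narrow to see are drawn at a minimum width. The lower panel enlarges the 5′ end, where PR (green), T47D ER (orange) and reChIP (purple) sites stand together between 1.23 and 6.42 kb, and ER sites of PR-deficient cells (blue) lie at the end itself.

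At ZBTB16, PR sites filled a stretch deep inside the gene. All 11 PR sites of E2+R5020 lay between 90 and 140 kb from the 5′ end, bounds set after the sites were seen, as did 20 of the gene's 26 sites. In tiles as long as the ZBTB16 window, 1.57% held at least 11 sites of this list. That pair of gene and list was picked too, and it had the most sites of any pair. With R5020 PR had 3 sites and with E2 also 3, so the count with both hormones was well above either. The whole PR list was also longer with both hormones, at 11908 sites against 6358 with R5020 and 7961 with E2. The depth and threshold of each list are not given in the sources used here. No reChIP site was listed at ZBTB16, and the single ER site of PR-deficient cells, with E2, lay beyond the 3′ end at the lowest score of its list.

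The PR sites of E2+R5020 at ZBTB16 were of mixed score. The highest, a 723 bp site at 102.9 to 103.7 kb (chr11:114033364-114034086), had 96.5% of its list lower. It was also a site of T47D ER with E2 and with E2+R5020: the 2232 bp E2 site (52.5% lower) took in all of it, and the 145 bp E2+R5020 site (30.4% lower) lay within it. This was the only region at the 6 genes that joined an E2 list of T47D to another list. PR was listed in it with neither hormone alone.

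The neighbouring region at 100.1 to 100.7 kb (chr11:114030520-114031109) held PR with both single and combined progestin treatment and ER with R5020. PR with E2+R5020 had a 473 bp site (a score reached by 594 of 11908 sites) and PR with R5020 a 155 bp site (13.1% lower), overlapping by 38 bp. ER with R5020 had a 334 bp site at the lowest score of its list (0% lower), of which 299 bp lay in the E2+R5020 PR site. At 119.4 to 120.0 kb, PR alone was listed, with E2+R5020 (672 bp, 92.3% lower) and R5020 (173 bp, 13.1% lower).

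A pair of regions joined PR with E2+R5020 to ER with R5020 alone. At 105.4 to 106.5 kb the PR site was 1085 bp long (89.8% lower) and the ER site 483 bp (0% lower), with 481 bp in common. At 138.4 to 138.9 kb the PR site was 495 bp (63.7% lower) and the ER site 230 bp (46.3% lower), wholly inside it. The ER list of E2+R5020 had no site in either. The remaining ER site with R5020, at 136.0 to 136.3 kb (46.3% lower), was in no other list.

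Of the remaining 6 PR sites of E2+R5020 at ZBTB16, none met another list. Their shares of lower-scoring sites were 0% for 2 sites, 37.8% for 2 and 78.5% for 2. The 3 PR sites of E2 were alone too, at 14.9, 32.2 and 96.7 kb, and the best placed was that at 32.2 kb (84.7% lower). PR with R5020 had a site 23.9 to 24.1 kb upstream (61.8% lower), outside the stretch. NNMT lies within 50 kb of ZBTB16 in RefSeq, so sites in the flanks may belong to it. T47D ER with E2+R5020 had lone sites at 10.4 kb (0.395% lower) and 189.7 kb (50.6% lower).

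**Figure D3:**
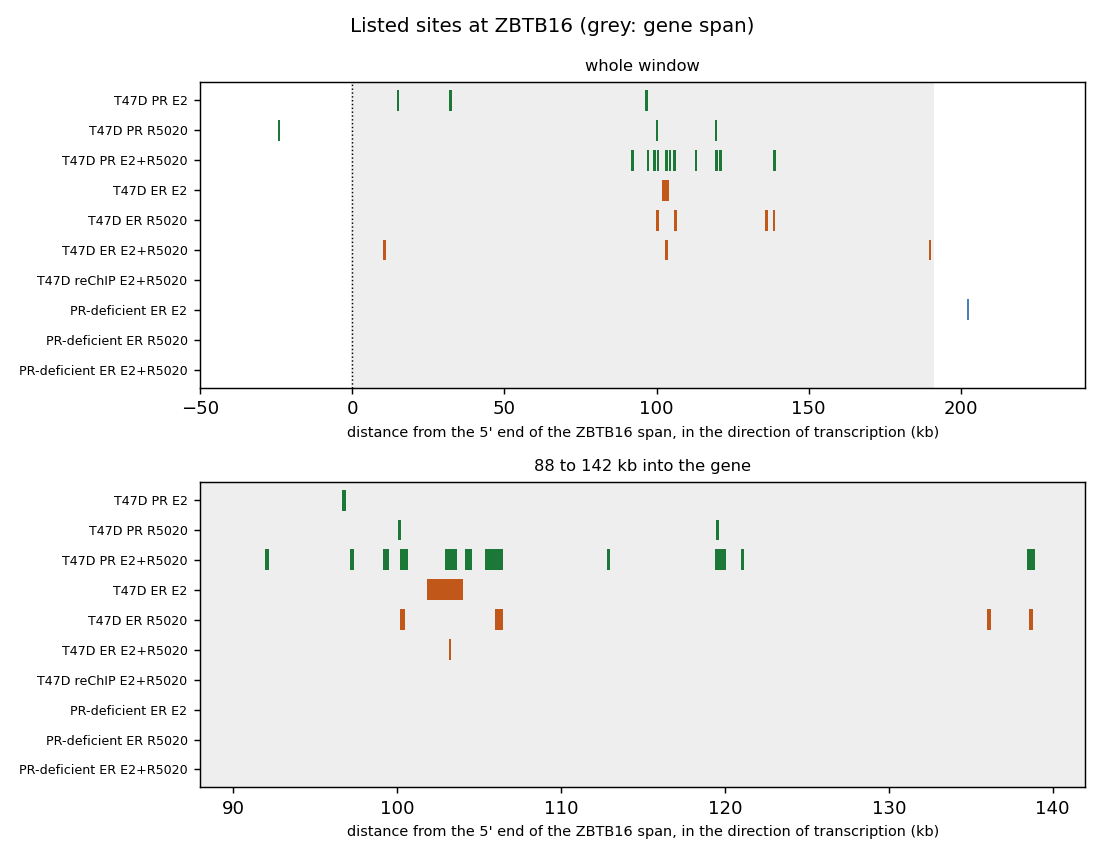
Sites at ZBTB16 by list (rows) at their distance in kb from the 5′ end of the gene span (dotted line; span in grey), with a minimum drawn width. The lower panel enlarges the stretch that holds all 11 PR sites of E2+R5020 (green), 4 ER sites of R5020 and 1 ER site each of E2 and E2+R5020 (orange), and no reChIP or PR-deficient site.

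STAT5A held a PR site of high score inside the gene. At 6.75 to 7.41 kb (chr17:40446314-40446974), PR with E2+R5020 had a 661 bp site with a score reached by 99 of its 11908 sites (99.2% lower). PR with R5020 had a 154 bp site inside it (13.1% lower), and no ER or reChIP list had one. A second PR site of E2+R5020 at 4.32 to 4.59 kb (37.8% lower) was alone. T47D ER was listed at STAT5A with E2+R5020 only, at 24.5 to 24.7 kb upstream (30.4% lower) and at 11.1 kb upstream (111 bp, 50.6% lower), the latter wholly within a PR-deficient ER site of R5020 (184 bp, 0% lower). PR-deficient ER also had a site 3.89 to 4.80 kb upstream with E2 (17.4% lower) and one at 0.801 to 1.04 kb inside with R5020 (52.1% lower). STAT5B and STAT3 lie within 50 kb of STAT5A in RefSeq, so sites in the flanks may belong to either.

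PER1 had no PR or reChIP site. Of its 7 sites, 5 were ER sites of PR-deficient cells. The only shared region lay 1.74 to 2.62 kb upstream (chr17:8057497-8058378), where PR-deficient ER was listed with E2 (688 bp, 24.0% lower) and with E2+R5020 (882 bp, 15.1% lower). A further E2+R5020 site of 1596 bp lay 3.22 to 4.82 kb upstream, at the lowest score of the list. The R5020 list of PR-deficient cells had sites at 23.6 to 23.7 kb (52.1% lower) and 37.7 to 38.0 kb upstream (0% lower). T47D ER had 1 site with E2 beyond the 3′ end (0% lower) and 1 with E2+R5020 at 19.7 to 19.9 kb upstream (50.6% lower). RefSeq places 5 other protein-coding genes within 50 kb of PER1, and sites in the flanks may belong to them.

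SGK1 and TNFSF11 were nearly empty. SGK1 had a PR site of E2+R5020 39.9 to 40.1 kb upstream (249 bp, 37.8% lower) and T47D ER sites of E2+R5020 at 49.4 kb inside (77 bp, 30.4% lower) and beyond the 3′ end at 163.4 kb (257 bp, 9.54% lower). TNFSF11 had a single ER site of E2+R5020, at 85.9 kb from the 5′ end and so beyond the gene (174 bp, 9.54% lower). None was shared. That a site is not listed does not show that no receptor was bound, because the lists hold only sites above a threshold not given here.

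**Figure D4:**
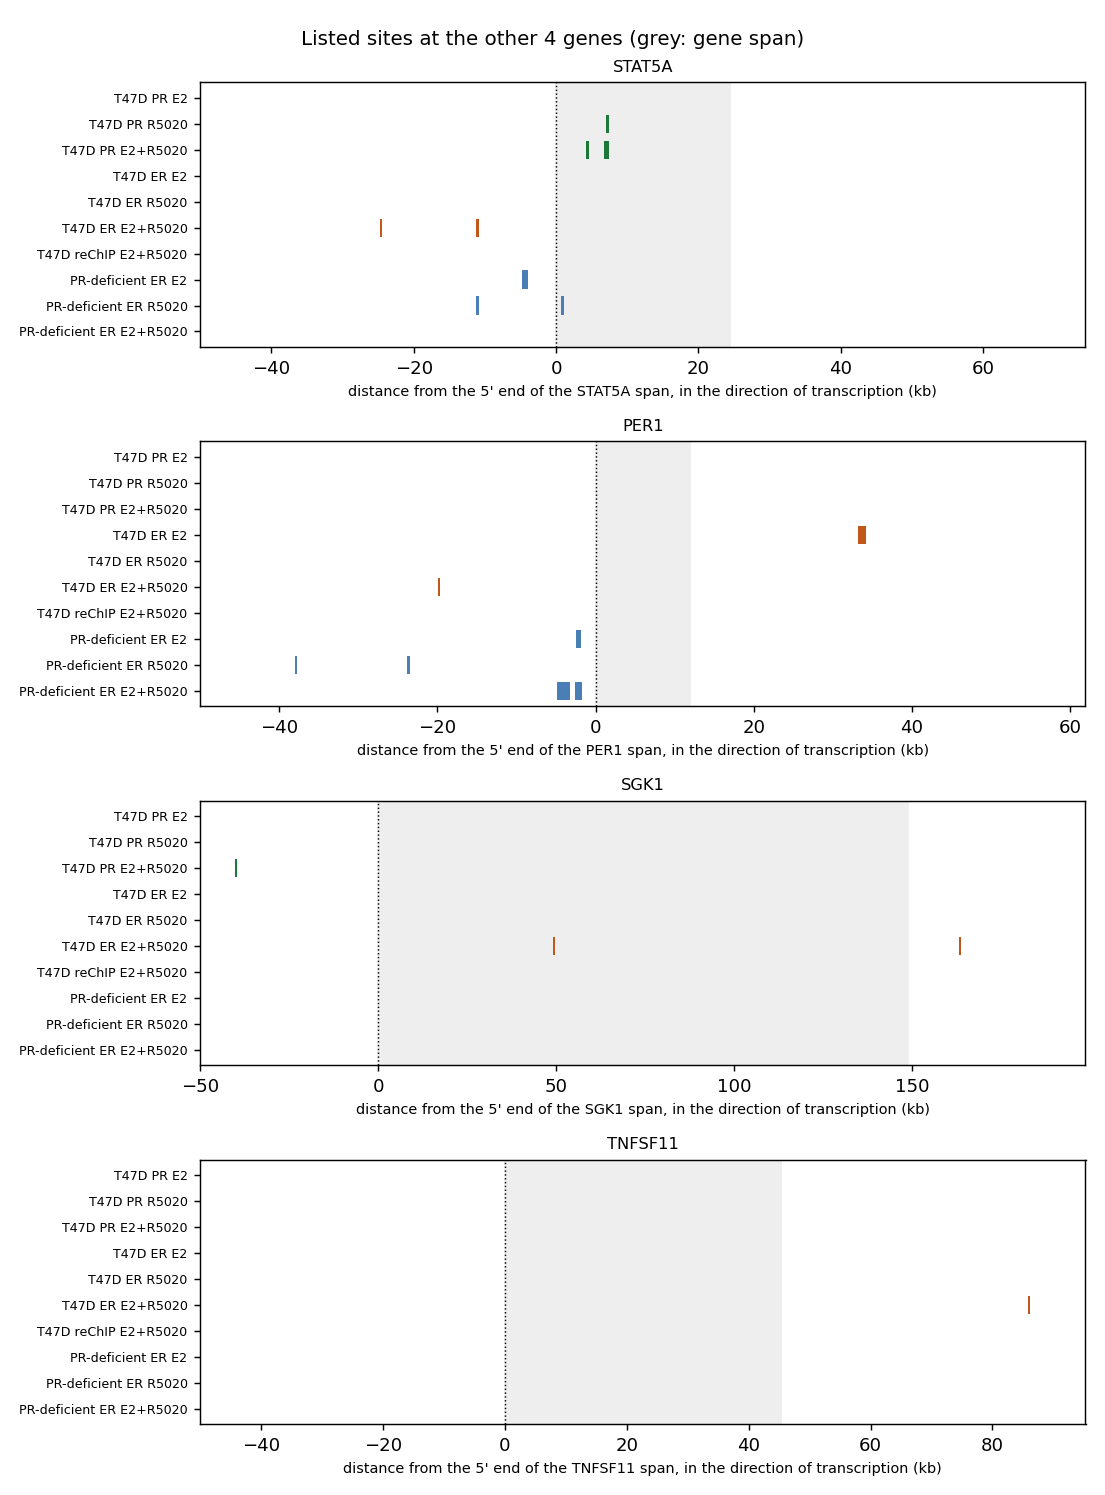
Sites at STAT5A, PER1, SGK1 and TNFSF11 by list (rows) at their distance in kb from the 5′ end of each gene span (dotted line; span in grey), with a minimum drawn width. PR sites (green) stand inside STAT5A between 4.32 and 7.41 kb, PER1 has none, SGK1 has 1 far upstream and TNFSF11 has only 1 ER site (orange).

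PR sites of R5020 lay at 3 of the 6 genes and usually had a partner with both hormones. Of the 9 PR sites of R5020, 7 overlapped the PR list of E2+R5020, against 14.1% of all PR sites of R5020. In the other direction 5 of 18 did so, against 6.71%. The 7 included the pairs at 1.23 to 2.03 kb and 2.37 to 3.17 kb inside FKBP5, each pair meeting a single E2+R5020 site, so the 7 are not 7 separate places. None of the 5 PR sites of E2 met a site of any other list, against 23.7% over its whole list, a share at which 5 sites are too few to compare. The 2 R5020 sites without a partner were the weak FKBP5 site at 5.74 to 5.87 kb, where E2+R5020 gave ER and reChIP sites, and the ZBTB16 site upstream of the gene.

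Overlap between the receptors was counted next. Of the 32 PR sites, 11 overlapped a T47D ER site (12.8% over the 3 whole PR lists) and 0 an ER site of PR-deficient cells (8.49%). At a share that low, 0 of 32 sites is not read as a difference, and many of the sites lie in the same few clusters. Of the 27 T47D ER sites, 9 overlapped a PR site (11.7% over the 3 whole ER lists) and 2 an ER site of PR-deficient cells (16.4%). By treatment, 4 of 8 ER sites of R5020 met the PR list of E2+R5020 (18.5% over the whole list) and 3 of 16 ER sites of E2+R5020 did (5.16%). Of the 4 E2+R5020 sites in PR-deficient cells, 3 met an E2 site of the same cells (75.4% of the list). The T47D lists and the PR-deficient lists differ in line and in the vehicle library subtracted, and loss of PR and these other differences cannot be told apart.

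Sites of the lists differed in where their scores stood. Above the median score of their list were 12 of the 18 PR sites of E2+R5020 (36.3% of that list, because of ties), 4 of 9 PR sites of R5020 (38.2%) and 4 of 5 of E2 (41.5%). Among T47D ER sites this held for 7 of 16 with E2+R5020 (49.4%), 1 of 8 with R5020 (29.2%) and 1 of 3 with E2 (48.9%). It held for 2 of the 4 reChIP sites (44.6%). In PR-deficient cells it held for none of the 6 sites with E2 (48.1%) and none of the 4 with E2+R5020 (46.6%), and for 2 of 5 with R5020 (47.9%). The median PR site of E2+R5020 was 410.5 bp at the genes and 292 bp in the whole list, that of T47D ER with E2+R5020 187.5 against 209 bp, and the reChIP 629 against 276 bp.

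**Figure D5:**
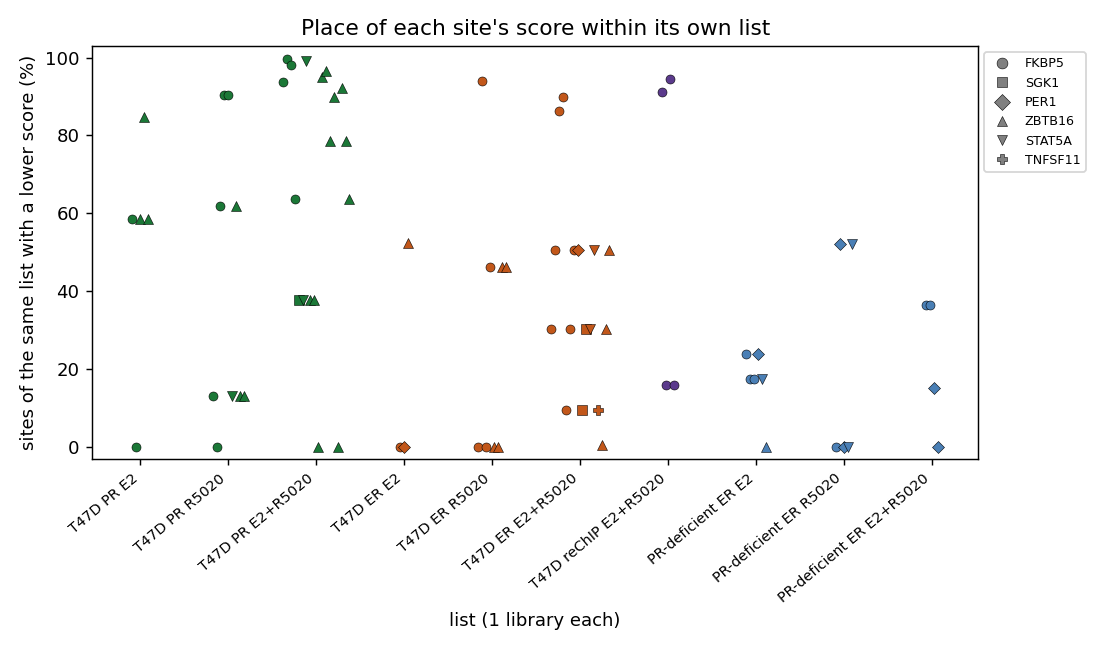
For each site at the 6 genes, the share of sites of the same list with a lower score (vertical axis, %), by list (horizontal axis) and gene (symbols); points are spread sideways for visibility and equal scores share a height. PR sites of E2+R5020 reach 99.7% at FKBP5 and 99.2% at STAT5A, while no site of PR-deficient cells lies above 52.1%.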

How the data were processed

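The members, spans and lists were chosen with earlier results of these data known. The submitters' processing notes name Bowtie2, MACS and the hg19 build; their versions, settings and filters were not given in the sources used here. A deposited list holds 5 columns with no header: chromosome, bounds, length and a score. The score was deposited by the authors with no unit. The names of the deposited lists say that vehicle (and IgG for the reChIP) was subtracted, with no method given. The labels place the 26 samples in 26 groups of 1 library; 10 have a list, and the other 16 are input, vehicle or IgG libraries, not analysed here separately.

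Positions, overlaps (at least 1 bp) and ranks were computed with pandas 2.3.3, NumPy 2.4.6 and SciPy 1.17.1 under Python 3.11.15. Plots were made in matplotlib 3.10.9. The overlap code was tested on simulated data. Tiles run from base 1 to the highest site end of each chromosome. All 6 genes were described; every region of 2 or more lists was named, and of regions of 1 list the best-placed site per gene and list, others being given as counts or briefly. Strands and promoters are RefSeq's, that of ZBTB16 excepted. A planned comparison with 18 other progestin-responsive genes was not run, because an annotation of hg19 was not used here. Depth is unknown, so no interval from reads is given.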

Additional observations from a re-analysis of the deposited data

Results flagged for a closer look

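With the 50 kb flank and all listed sites, the same change of hormone went with opposite changes in the number of listed ER sites over the 6 genes in the 2 lines. This was not tested, since each line has 1 library per treatment, and most of it depended on the settings. Adding R5020 to E2 changed the count over the 6 genes by 13 sites in T47D (3 to 16) and by -2 in PR-deficient cells (6 to 4). Adding E2 to R5020 changed it by 8 (8 to 16) and -1 (5 to 4), and E2 in place of R5020 by -5 (8 to 3) and 1 (5 to 6). By gene, adding R5020 to E2 gave 6 against -1 sites at FKBP5, 2 against -1 at ZBTB16 and 2 against -1 at STAT5A. Adding E2 to R5020 gave 2 against -2 at STAT5A, but 3 against 1, the same direction, at FKBP5. E2 in place of R5020 gave -3 against 2 at FKBP5, 1 against -1 at PER1 and -3 against 1 at ZBTB16. The remaining changes by gene were in the same direction or 0 in at least 1 line, such as 0 against 1 at PER1 on adding R5020 to E2 and 0 against -1 at STAT5A for E2 in place of R5020.

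The opposite directions over the 6 genes did not hold under every setting. Adding R5020 to E2 left the PR-deficient count at 9 with a 100 kb flank, at 1 with no flank and at 0 in the higher-scoring part of the lists. With the lowest score raised by 1 step, adding E2 to R5020 gave a higher count in both lines, from 4 to 16 in T47D and from 2 to 3 in PR-deficient cells. With a 20 kb flank that PR-deficient count was 3 before and after. For E2 in place of R5020, a 100 kb flank gave fewer sites in both lines (13 to 6 and 11 to 9), as did the higher-scoring part (4 to 1 and 2 to 0). With no flank, each PR-deficient list had 1 site. The whole ER lists went from 4014 to 19220 sites in T47D and from 7742 to 5663 in PR-deficient cells between E2 and E2+R5020, and from 5338 and 9141 to those same counts between R5020 and E2+R5020. Between R5020 and E2, both whole lists were shorter with E2 (5338 to 4014 and 9141 to 7742), whereas the PR-deficient count at the genes was 1 higher.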

How the results depend on the processing

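No paired analysis was possible because a treatment, line and antibody had only 1 library between them, and no library could be left out of a group. Of 140 recomputed values, 94 stayed within 1.5 times the reported count or, for a share, within its exact 95% interval. The other 46 did not. Shares of tiles were recomputed besides and are not among these 140 values. The cause was not tested beyond what each setting does by construction. Values that moved are given as sites, with the number of genes reached where it moved.

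With a flank of 20 kb, T47D ER with E2 had 1 site at 1 gene and PR-deficient ER with R5020 had 3 sites. With 100 kb, T47D ER had 6 sites at 5 genes with E2 and 13 with R5020, the reChIP 9 at 2 genes (9 regions), PR-deficient ER 11 with R5020 and 9 with E2+R5020, and 24 regions held 2 or more lists. With no flank, 51 sites and 29 regions were left, with 1 T47D ER site of E2 at 1 gene, 10 of E2+R5020 at 3 genes, and in PR-deficient cells 1 site at 1 gene for each of E2, R5020 and E2+R5020. With the lowest score kept raised by 1 step, T47D ER had 1 site with E2 at 1 gene and 4 with R5020, and PR-deficient ER 2 with R5020. In the higher-scoring part of each list (50% of its sites), 39 sites and 30 regions were left. They comprised 5 PR sites of R5020, 1 ER site of E2 at 1 gene, 4 of R5020 and 7 of E2+R5020, 2 reChIP sites in 2 regions, and in PR-deficient cells 0 sites with E2 and with E2+R5020, at 0 genes, and 2 with R5020. There 6 regions held 2 or more lists, 2 held both ER and PR, and 38.5% of sites met another list. With centres within 200 bp this share was 41.0%. Shares over the whole lists were not recomputed at these settings, so these values have no background to be set against.

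The PR counts moved by over 1.5 times only for R5020 and only in the higher-scoring part. Tiles of 100 or 300 kb moved every background share of tiles with a site, as tile length sets it. Read depth is unknown, and its part in the counts was not tested.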
